A study of Mus musculus with 6 samples.

Results

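The genes described here are 9 Ras effectors and Ral GTPases that act outside the RAF kinases, namely *Ralgds*, *Rgl1*, *Rgl2*, *Rgl3*, *Rala*, *Ralb*, *Rin1*, *Plce1* and *Tiam1*. They were chosen by name from the 53657 gene names in the count files, and all 9 were among the 19656 genes with enough counts to be tested. RNA was sequenced from 6 adult mice, 3 WT and 3 MUT, whose testes were collected 3 months after tamoxifen. WT mice carried *Gfra1-creERT2* and a tdTom fl/- reporter, and MUT mice carried the same alleles together with FR-*Hras* G12V fl/-, which after recombination leaves them heterozygous for *Hras* G12V at its own locus. Both groups received tamoxifen, which activates a Cre recombinase driven by the *Gfra1* promoter, so the tdTomato label and, in MUT mice, the mutation start in undifferentiated spermatogonia. All mice were of a mixed background and WT mice were littermate controls. Testis cells positive for tdTomato and bright for MCAM, a surface protein of undifferentiated spermatogonia, were sorted from each mouse. Recombination is mosaic across the testis in this model. The study checked the share of the mutant allele in the sorted samples by variant calling, which gene counts cannot repeat. From it the study took most of the sorted MUT cells to carry the mutation.

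Ras proteins are molecular switches that bind and activate several families of effectors when loaded with GTP. The RalGEFs (*Ralgds*, *Rgl1*, *Rgl2* and *Rgl3*) bind active Ras and load the Ral GTPases RALA and RALB with GTP, and active Ral acts through the exocyst, which tethers secretory vesicles to the plasma membrane. RIN1 is an exchange factor for RAB5 that also activates ABL tyrosine kinases, PLCE1 is a phospholipase C that makes the second messengers inositol trisphosphate and diacylglycerol, and TIAM1 is an exchange factor for the Rac GTPases of the actin cytoskeleton. These proteins are regulated mainly by binding and by GTP loading, which transcript counts do not measure.

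Counts on genes totalled between 22729292 and 23550433 per sample, so depth differed little, and 3 counts corresponded to 0.127 to 0.132 CPM, the count scaled to a library of 1000000. In the values below, the samples of a group are given in replicate order. The 10 markers of undifferentiated spermatogonia and germ cells, which include *Gfra1*, *Zbtb16* and *Ddx4*, summed to between 2883 and 3427 CPM and none was at 0. WT replicate 3 stood apart from the other samples. It had the lowest of these sums, against 3051 to 3427 CPM elsewhere. Not each marker was lowest there, since *Gfra1* and *Etv5* were lowest in MUT replicate 2. *Id4* and *Dazl* were lowest in MUT replicate 3 and *Nanos3* in WT replicate 2. Its macrophage markers summed to 998 CPM against 538 to 693 CPM elsewhere, and all 5 macrophage, all 5 B cell and all 4 spermatocyte markers were highest there. The 6 Leydig cell markers, none of them at 0, summed to 67.3 CPM in MUT replicate 3 and to at most 21.1 CPM in any other sample. *Hras* itself was at 56.8, 60.1 and 65.2 CPM in the WT samples and at 69.9, 69.1 and 61.0 CPM in the MUT samples, and counts of the whole gene do not tell its alleles apart.

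No exon base of any of them was shared with another gene of the counting annotation. Among 50-base stretches of their transcripts, the share found in transcripts of other genes was 0.980% for *Rin1*, 0.389% for *Rgl3*, 0.0154% for *Ralgds* and 0 for the other 6. Only exact matches to annotated transcripts were searched, so near-identical or unannotated copies were not covered. In GRCm38 the RalGEF genes lie on chromosome 2 from 28513125 to 28553081 (*Ralgds*, plus strand), chromosome 1 from 152516760 to 152766351 (*Rgl1*, minus strand), chromosome 17 from 33929543 to 33937687 (*Rgl2*, plus strand) and chromosome 9 from 21968711 to 21989446 (*Rgl3*, minus strand). *Rala* spans 17880571 to 17944239 of chromosome 13 and *Ralb* 119470305 to 119504794 of chromosome 1, both on the minus strand. *Rin1* and *Plce1* share the plus strand of chromosome 19, from 5050481 to 5057071 and from 38481109 to 38785030, and *Tiam1* covers 89787111 to 89980080 of chromosome 16, minus strand.

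The first question was which of these effectors were transcribed in the sorted cells. Levels of different genes were compared as CPM per kb of merged exon, which scales for gene length but depends on the length chosen. *Ralgds* was the most abundant of the 9 at 38.3 ± 3.24 CPM per kb (SD, n = 6), above 92.9% of the genes tested. *Rala* followed at 23.4 ± 1.58 CPM per kb (SD, n = 6). *Rgl2*, *Rgl1* and *Tiam1* formed a middle group with means of 13.8, 13.6 and 11.2 CPM per kb, in which the 6-sample ranges of neighbours overlapped. *Ralb* was at 5.34 ± 0.634 CPM per kb and *Rgl3* at 1.88 ± 0.186 CPM per kb (SD, n = 6). *Rin1* and *Plce1* were lowest with means of 0.712 and 0.356 CPM per kb, and *Plce1* exceeded only 10.6% of the genes tested. The ratio of *Ralgds* to *Plce1* was at least 88.3 in every sample. In bulk RNA of sorted cells, fewer cells expressing a gene and less RNA per cell cannot be told apart. Macrophage markers summed to between 538 and 998 CPM in these samples and spermatid markers to between 471 and 1172 CPM. How much of each level came from such cells was not tested.

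**Figure D1:**
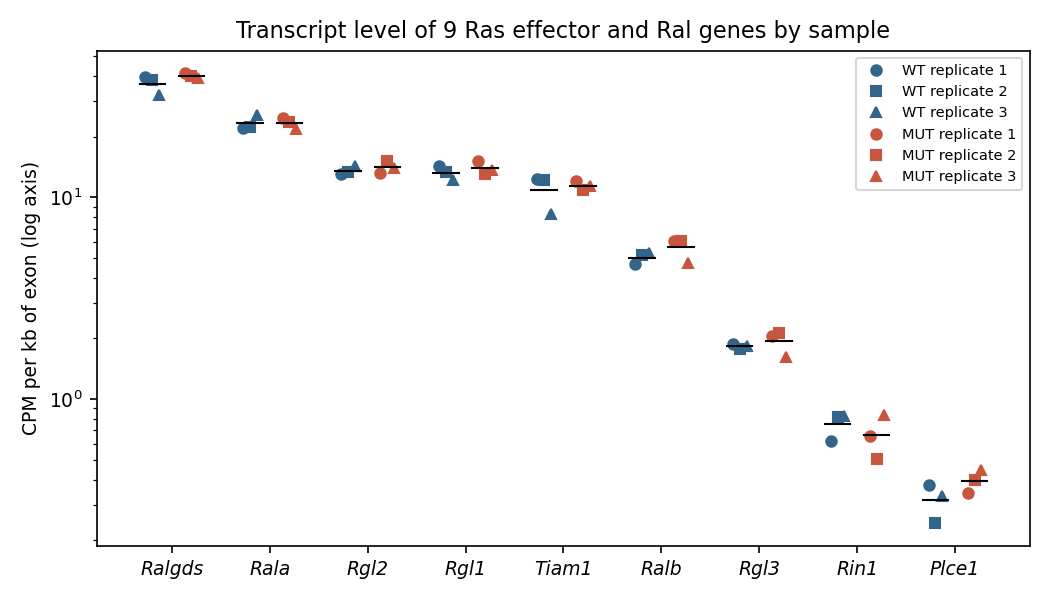
Level of each gene in each sample, in CPM per kb of exon on a log axis, with genes ordered by mean level, WT in blue, MUT in red, a symbol per replicate and a black line at the group mean. *Ralgds* sits highest near 38.3 and *Plce1* lowest near 0.356 CPM per kb, and the WT and MUT points of every gene overlap.

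In 6 of the 8 steps down this order, every sample of the upper gene exceeded every sample of the lower one. The order was the same when each gene was scaled by its longest coding transcript in place of its merged exons, but then 4 of the 8 steps separated, since *Tiam1* and *Ralb* overlapped (means of 15.2 and 11.5 CPM per kb of transcript) and so did *Rin1* and *Plce1* (0.758 and 0.604 CPM per kb of transcript).

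The RalGEFs, which link Ras to Ral, were taken first in the comparison of MUT with WT. *Ralgds*, the founding member of the family, had 243, 236 and 197 CPM in the WT samples and 253, 246 and 241 CPM in the MUT samples. WT replicate 3 was the lowest sample, while WT replicate 1 lay within the MUT range. Its log2 fold change of MUT over WT was 0.13 (standard error 0.089, 95% interval -0.070 to 0.34), and 0.047 without WT replicate 3. In that sample the macrophage, B cell and spermatocyte markers were highest. The summed markers of undifferentiated spermatogonia and germ cells were lowest there, though not each marker was. The part of these cells was not tested. *Ralgds* was higher in MUT in 3 of the 3 same-numbered pairs, *Tiam1* in 1 and each of the other genes in 2.

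*Rgl1*, a *Ralgds* paralogue, was at 98.2, 92.3 and 83.9 CPM in the WT samples and at 104.5, 90.2 and 94.8 CPM in the MUT samples. As for *Ralgds*, the lowest sample was WT replicate 3 and the highest MUT replicate 1, and the groups overlapped, with a log2 fold change of 0.077 (standard error 0.084) that was 0.019 without WT replicate 3. *Rgl2*, whose product is also called RLF, ran from 60.3 to 65.8 CPM in WT and from 61.1 to 69.7 CPM in MUT. It was the steadiest of the 9, with a coefficient of variation of 5.56% over the 6 samples and a log2 fold change of 0.059 (standard error 0.074).

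*Rgl3*, the least abundant RalGEF, had 168, 162 and 171 counts in the WT samples, or 7.34, 6.92 and 7.23 CPM. The MUT samples had 185, 192 and 149 counts, or 8.09, 8.33 and 6.37 CPM. MUT replicates 1 and 2 were above all WT samples and MUT replicate 3 below them all, giving a log2 fold change of 0.084 (standard error 0.152, 95% interval -0.26 to 0.43).

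*Rala* encodes the more abundant of the Ral GTPases here. It had 63.8, 64.6 and 74.2 CPM in the WT samples and 71.9, 68.5 and 63.3 CPM in the MUT samples. The highest sample was WT replicate 3 and the lowest MUT replicate 3, so both extremes carried the same replicate number. Between the groups *Rala* differed by a log2 fold change of 0.0076 (standard error 0.084), and the 95% interval from -0.18 to 0.20 corresponds to between 0.880-fold and 1.15-fold.

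*Ralb*, its paralogue, had 23.0, 25.4 and 26.0 CPM in the WT samples and 30.1, 30.1 and 23.4 CPM in the MUT samples. MUT replicates 1 and 2 were above all WT samples, and MUT replicate 3 lay within the WT range. For *Ralb* the log2 fold change was 0.17 (standard error 0.119, 95% interval -0.10 to 0.44, unadjusted p = 0.191 from edgeR). Without MUT replicate 3, the sample with the high Leydig cell markers, it was 0.28 with an unadjusted p of 0.0209 and an adjusted p of 0.434 from edgeR, in a fit where 8.64% of all genes had an unadjusted p under 0.05 against 2.78% with all samples. The part of the Leydig cell RNA in this value was not tested.

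The ratio of *Rala* to *Ralb* per kb of exon was between 3.88 and 4.86 in the 6 samples, and between 1.94 and 2.43 when each was scaled by its longest coding transcript. The 250 bases before the RefSeq start of each (GRCm38.p6, minus strand) are shown because *Rala* exceeded its paralogue by either length, with capitals marking GC boxes, the letters GGGCGG or CCGCCC, the binding motif of the SP transcription factors. The *Rala* window is chr13:17944218-17944467 and the *Ralb* window chr1:119504783-119505032, and both are given 5′ to 3′ on the coding strand.
Rala: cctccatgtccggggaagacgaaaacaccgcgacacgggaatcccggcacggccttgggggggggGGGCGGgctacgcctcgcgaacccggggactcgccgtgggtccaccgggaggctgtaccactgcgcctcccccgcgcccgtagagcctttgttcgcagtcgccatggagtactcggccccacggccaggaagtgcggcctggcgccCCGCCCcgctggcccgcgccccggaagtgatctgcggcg
Ralb: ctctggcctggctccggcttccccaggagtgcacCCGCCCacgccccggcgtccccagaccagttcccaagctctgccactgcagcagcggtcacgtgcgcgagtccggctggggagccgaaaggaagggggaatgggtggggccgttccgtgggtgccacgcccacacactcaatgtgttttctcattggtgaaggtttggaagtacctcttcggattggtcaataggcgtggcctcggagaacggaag

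The *Rala* window held 32 CpG dinucleotides and 2 GC boxes, one on either strand, and the *Ralb* window 18 CpG dinucleotides and 1 GC box. The other 7 genes had between 6 and 14 CpG dinucleotides in such a window, where the median over 32851 promoters was 6. A GC box was present upstream of 5 of the 9 genes, *Ralgds*, *Rgl2* and *Rgl3* being the others, and of 32.7% of all promoters. *Ralgds*, the most abundant gene, had 10 CpG dinucleotides and *Rgl3* 12. Whether these windows bear on transcript level was not tested. For *Ralgds*, *Rgl1*, *Rgl2*, *Rin1*, *Plce1* and *Tiam1* the window lies inside the span of the gene in the counting annotation, downstream of its outermost start. The windows of *Rala* and *Ralb* reach into that span at one end, from 17944218 to 17944239 and from 119504783 to 119504794. No binding of a factor was measured.

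Of the 3 effectors that act outside Ral, *Tiam1* was the only one above 10 CPM in these samples. It had 121, 121 and 81.7 CPM in the WT samples and 119, 107 and 113 CPM in the MUT samples. WT replicate 3 was far below the other 5 samples, which all lay between 107 and 121 CPM. For *Tiam1* the log2 fold change was 0.065 (standard error 0.142), and without WT replicate 3 it turned to -0.10, with an adjusted p of 0.999 from edgeR. The remaining 2 WT and 3 MUT samples did not overlap, which held for 19.0% of all genes in that split. In WT replicate 3 the macrophage, B cell and spermatocyte markers were highest. The summed markers of undifferentiated spermatogonia and germ cells were lowest there, at 2883 CPM against 3051 to 3427 CPM elsewhere, though not each marker was. The part of these cells in the low *Tiam1* value was not tested.

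*Plce1* had 138, 91 and 126 counts in the WT samples and 125, 147 and 166 counts in the MUT samples, or 3.89 to 6.03 CPM in WT and 5.46 to 7.10 CPM in MUT. WT replicate 2 was lowest and MUT replicate 3 highest, and the groups overlapped through WT replicate 1 and MUT replicate 1. Its log2 fold change of 0.31 (standard error 0.200, unadjusted p = 0.155 from edgeR) was the farthest from 0 among the 9, with a 95% interval from -0.14 to 0.77 that reaches 1.71-fold. It was 0.14 without WT replicate 2 and 0.45 without WT replicate 1.

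*Rin1* had 68, 92 and 94 counts in the WT samples and 72, 56 and 94 counts in the MUT samples. The same-numbered samples of replicate 3 had equal counts, and MUT replicate 2 was lowest. Its log2 fold change was -0.18 (standard error 0.231, 95% interval -0.71 to 0.35), the only negative value among the 9, and ran from -0.38 without MUT replicate 3 to -0.030 without MUT replicate 2.

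**Figure D2:**
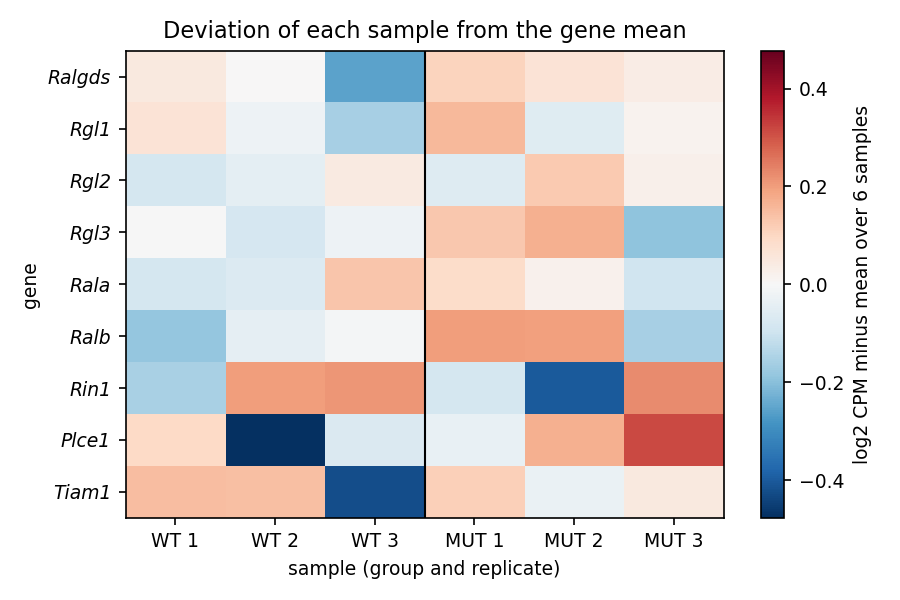
Deviation of each sample from the gene mean, as log2 CPM minus the mean over the 6 samples, with a line between WT and MUT. *Tiam1* and *Ralgds* are lowest in WT replicate 3 at -0.42 and -0.25, and *Rin1* and *Plce1*, the genes with the fewest counts, have the strongest colours elsewhere.

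The spread among samples followed the number of counts in part. The coefficient of variation over the 6 samples was 19.4% for *Rin1* and 19.2% for *Plce1*, the genes with the fewest counts, but it was also 13.7% for *Tiam1*, which had at least 1934 counts in every sample. Of the 9 genes, 3 had their lowest level in WT replicate 3, namely *Ralgds*, *Rgl1* and *Tiam1*, and 3 their highest in MUT replicate 1, namely *Ralgds*, *Rgl1* and *Ralb*.

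None of the 9 genes differed between MUT and WT beyond the spread between replicates. By edgeR's quasi-likelihood test 0 of 9 passed an adjusted p of 0.1, each having an adjusted p of 0.998, and 0.0102% of all genes tested did (2 genes, *Igkv4-91* and *Ighv3-6*). None reached an unadjusted p under 0.05, where 2.78% of all genes did (1.34% higher and 1.44% lower in MUT), and the WT and MUT samples overlapped for all 9, where 7.69% of all genes had groups that did not overlap. With the replicate number as a block, edgeR called 0 of 9 and 0.0661% of all genes (13 genes), and 0 of 9 had an unadjusted p under 0.05 against 6.6% of all genes. DESeq2 called 0 of 9 and 0.0241% of all genes, and 0 of 9 had an unadjusted p under 0.05 against 1.18%. With the block it called 0 of 9 and 0.148% of all genes. Permuting the samples exactly (20 assignments, two-sided), a test that cannot go below 0.1, gave p between 0.2 and 1.0.

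**Figure D3:**
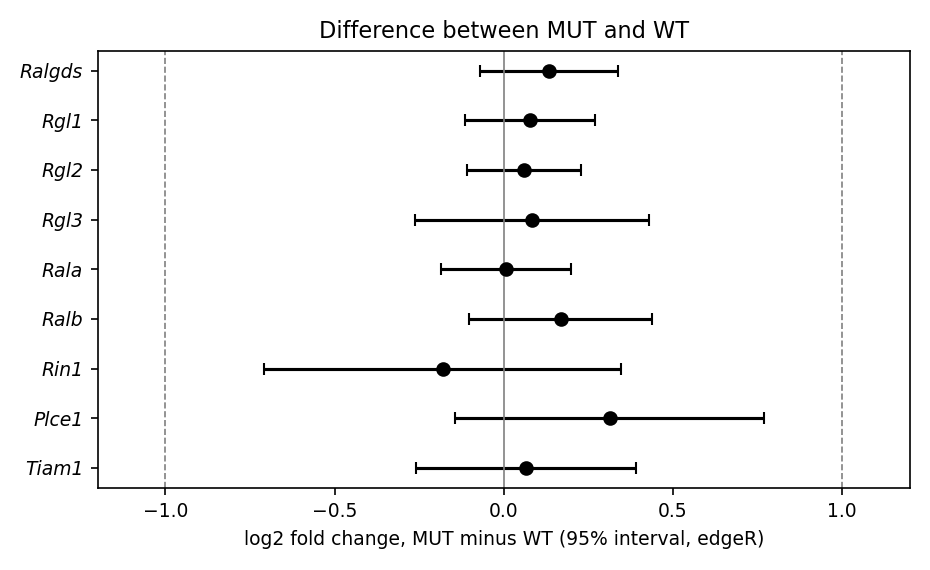
Log2 fold change of MUT over WT for each gene with its 95% interval from edgeR, a solid line at 0 and dashed lines at a 2-fold change either way. All 9 intervals include 0 and stay inside the dashed lines, and *Rin1* and *Plce1* have the widest.

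The intervals give the range of change that each value allows. For all 9 genes the 95% interval stayed within 2-fold in either direction, and for 7 of 9, the exceptions being *Rin1* and *Plce1*, it stayed within 1.5-fold. Over all genes tested these shares were 81.6% and 59.1%. The log2 fold change was positive for 8 of the 9 genes, with a median of 0.077, while 51.9% of all genes had a positive value and the median was 0.0066. Among the alternative fits that kept all samples the direction changed for *Rala* alone, to -0.0050 when each sample had to hold 10 or more counts, and between 5 and 8 of the 9 values were positive when 1 sample was left out.

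The second comparison asked whether the make-up of each family shifted, using the shares of the summed level per kb within a sample, which do not depend on scaling between libraries. *Rala* made up 82.5%, 81.2% and 82.9% of the Ral GTPase level in the WT samples and 80.2%, 79.5% and 82.1% in the MUT samples. MUT replicate 3 was above WT replicate 2, so the groups overlapped, and the difference in means was -1.60 percentage points (exact two-sided permutation test, p = 0.2 and 0.9 after Benjamini-Hochberg adjustment over 5 shares). The share was lower in MUT in each same-numbered pair (exact sign-flip test, p = 0.25, the smallest possible). Scaled by the longest coding transcript, the mean share over the 6 samples was 68.7% in place of 81.4%, so the excess of *Rala* over *Ralb* depends on the length used.

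*Ralgds* made up 57.5%, 57.3% and 53.2% of the RalGEF level in the WT samples and 57.5%, 56.9% and 57.1% in the MUT samples. Apart from WT replicate 3 the samples lay between 56.9% and 57.5%. *Rgl1* took 20.3% ± 0.385 (SD, n = 3) in WT and 19.9% ± 1.28 in MUT, *Rgl2* 20.9% ± 2.41 and 20.1% ± 1.52, and *Rgl3* 2.81% ± 0.219 and 2.76% ± 0.343. No difference beyond the spread between replicates was detected in any of these 4 shares (exact two-sided permutation tests, p between 0.7 and 0.9). The summed RalGEF level was between 60.2 and 71.6 CPM per kb in the 6 samples and the summed Ral GTPase level between 26.6 and 30.9 CPM per kb.

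**Figure D4:**
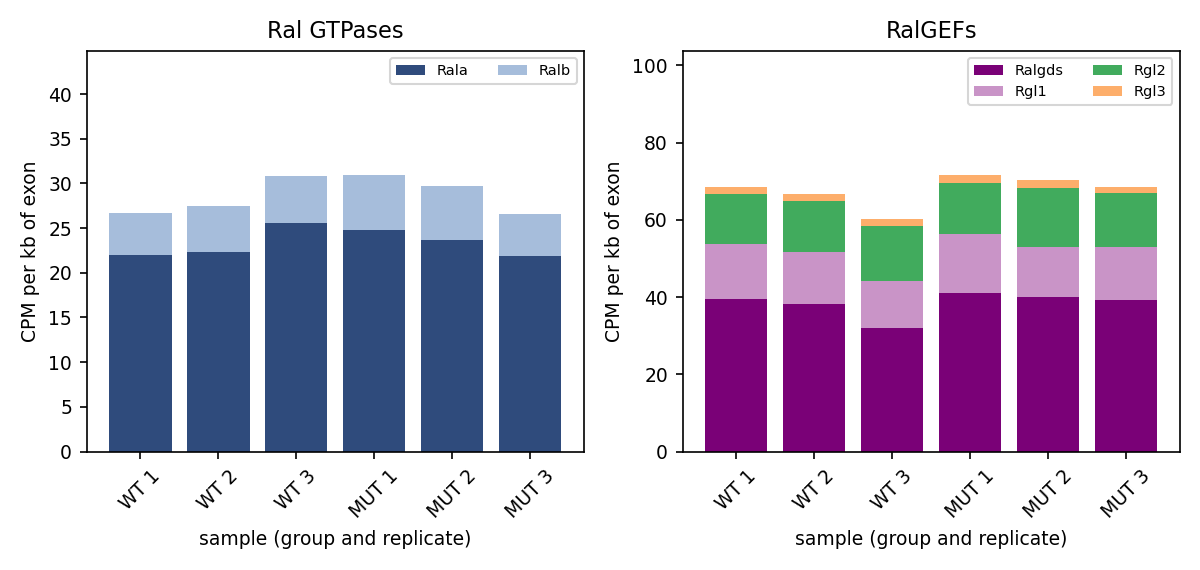
Level of the Ral GTPases (left) and of the RalGEFs (right) in each sample, in CPM per kb of exon, as bars stacked by gene. *Rala* fills 79.5% to 82.9% of each left bar and *Ralgds* 53.2% to 57.5% of each right bar, with the lowest RalGEF bar in WT replicate 3.

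Genes around the 9 were then read from 7 lists of 57 genes, all of which were tested. By edgeR 0 of 57 passed an adjusted p of 0.1 and DESeq2 called 0 as well. An unadjusted p under 0.05 was reached by 2 of 57 (3.51%, against 2.78% of all genes), both higher in MUT. DESeq2 gave 0 of 57 at that level, against 1.18% of all genes. With the replicate block edgeR gave 3 of 57, 1 of them (*Rassf4*) lower in MUT, against 6.6% of all genes. The median log2 fold change over the 57 was 0.041.

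None of the regulators and targets of Ral passed the test. The GTPase-activating complexes that switch Ral off, encoded by *Ralgapa1*, *Ralgapa2* and *Ralgapb*, had log2 fold changes of 0.12, 0.0042 and 0.041, and *Ralgapb* was the most abundant at 16.6 ± 1.17 CPM per kb (SD, n = 6). The Ral exchange factors that do not bind Ras, *Ralgps1* and *Ralgps2*, had 0.16 and -0.015. Of 16 Ral effectors, exocyst subunits and their partners, 12 had a positive and 4 a negative log2 fold change, between -0.14 and 0.14, and none had groups that did not overlap. *Exoc2* and *Exoc8*, the exocyst subunits that bind Ral directly, had 0.12 (standard error 0.075) and 0.089 (standard error 0.131).

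Groups that did not overlap were found for 6 of the 57 genes (10.5%, against 7.69% of all genes in either direction). All 6 were higher in MUT, where 4.69% of all genes had such groups. Among the marker lists, the sum for differentiating spermatogonia ran from 607 to 672 CPM in WT and from 697 to 846 CPM in MUT. That for Sertoli cells ran from 22.4 to 24.6 CPM and from 25.1 to 31.7 CPM, so neither sum overlapped between the groups. Single markers of both lists did overlap. *Kit* had 2924 to 3873 counts in WT and 3556 to 5216 in MUT, and *Sox9* was lowest in MUT replicate 3 (36 counts). Summed spermatid markers ran from 680 to 1172 CPM in WT and from 471 to 893 CPM in MUT. The part of these cells in the 6 genes was not tested. *Rassf3*, a Ras association domain protein, was the most abundant of its list at 28.2 CPM per kb and had a log2 fold change of 0.19 (standard error 0.072, unadjusted p = 0.0250 from edgeR). *Plcb1*, a phospholipase C with 17 to 36 counts per sample, had 0.62 (standard error 0.253, unadjusted p = 0.0386 from edgeR). The other 4 were the phospholipases C *Plcg2* (0.16) and *Plcb3* (0.13), *Rac3* (0.22), a substrate of Rac exchange factors, and *Rab5b* (0.078), an endosomal GTPase. All 6 had an adjusted p of 0.998 from edgeR.

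In the remaining lists the RIN paralogues, RAB5 and ABL genes had 6 positive and 1 negative log2 fold change, and *Rab5c* led at 81.4 CPM per kb. *Tiam2*, the Rac and the PAK genes had 4 positive and 3 negative, with *Rac1* leading at 30.1 CPM per kb. Among other phospholipases C and Rap GTPases 7 were positive and 4 negative, with *Rap1b* leading at 59.2 CPM per kb. The PI3K catalytic subunits, afadin (named *Mllt4* in the files), RASSF proteins and *Rasip1* had 4 positive and 7 negative, from -0.32 for *Rassf4*.

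**Figure D5:**
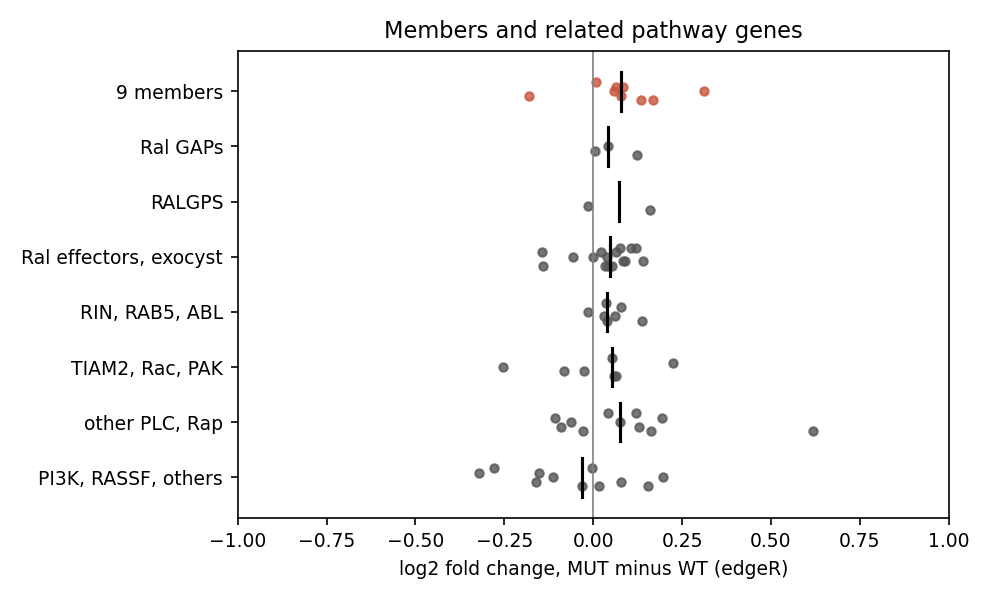
Log2 fold change of MUT over WT (edgeR) for the 9 genes in red and for the related genes of 7 lists in grey, with a black line at each median. Apart from *Plcb1* at 0.62, all points lie between -0.32 and 0.31.

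Likeness of pattern over the 6 samples was measured as the root mean square difference between log2 CPM profiles centred on their means. The closest pairs of a member with one of the 57 genes were *Ralgds* with *Plcg2* (0.022), *Rgl2* with *Reps1* (0.030) and *Rala* with *Rab5c* (0.045). These profiles share the libraries and their depth, and flat profiles are alike by this measure.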

How the data were processed

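RNA of sorted cells from 3 WT and 3 MUT mice was analysed. Per the file headers, the authors counted fragments per gene name with featureCounts 1.6.2 on GENCODE vM17 with tdTomato added, without regard to strand. The submitters' processing notes name STAR and build GRCm38.p6. The deposited values are raw counts, not normalized or pooled, and totals of about equal size give all samples like counting error. Spread beyond counting error was not alike, since WT replicate 3 stood apart from the other WT samples. Floors of 3 counts cover counting error only.

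Genes were filtered with filterByExpr, scaled by TMM and tested with edgeR's quasi-likelihood test in edgeR 4.0.16 (R 4.3.3) with Benjamini-Hochberg adjustment over 19656 genes at an FDR of 0.1. Standard errors came from the log2 fold change and F statistic. CPM per kb used the merged exon length of the files, and log2 CPM a prior of 0.5. DESeq2 1.42.0, the tool named in the study's methods, was an alternative. The test script was tested on simulated counts. Transcript stretches and transcript lengths came from GENCODE vM21 on the same build and promoter windows from RefSeq (GRCm38.p6), with all 9 genes matched by symbol. All 57 related genes were found in the files, 1 of them under a RefSeq synonym.

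The labels number samples 1 to 3 in both groups, and the study's methods state littermate controls. Deviations from group means over 10583 genes above 10 CPM correlated at 0.31, 0.17 and 0.39 in pairs 1, 2 and 3, which by a threshold of 0.1 for each pair was taken as pairing. Pairs of different number ranged from -0.42 to 0.32, the highest being WT 2 with MUT 1. That value exceeded those of pairs 1 and 2, so the threshold cannot establish pairing, and the labels name no litters. A fit with the replicate number as a block was compared. The main fit has no block, since the study's methods name none. Each sample is a separate mouse.

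The 9 genes, the related lists, the markers and the tests were chosen with earlier results of these data known. All 9 genes were named. Of the related genes those with an unadjusted p under 0.05 or groups that did not overlap were named, besides the most abundant of each list, 1 of which is not reported here, and the 3 gene pairs closest in pattern. The Ral regulators, *Exoc2*, *Exoc8* and *Rassf4* are named outside this rule, after their values were seen. The only per-sample columns in the files are those of the 6 samples.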

Additional observations from a re-analysis of the deposited data

How the results depend on the processing

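The number of the 9 genes called stayed at 0 in each of 12 alternative fits in edgeR or DESeq2, with adjusted p values of at least 0.434, and the number of the 57 related genes called stayed at 0. The replicate block changed no call among these genes (in edgeR, of the 9, the log2 fold change of *Tiam1* moved most, to 0.086). The count over all genes, 2 by edgeR, was 1 at an FDR of 0.05, 9 with DESeq2, 5 without a filter and 0 when each sample had to hold 10 or more counts, a setting in which 479 had an unadjusted p under 0.05 in edgeR. The replicate block gave 13 in edgeR and 55 in DESeq2. Leaving out 1 sample at a time gave 0 (without MUT replicate 2, with 292 at an unadjusted p under 0.05) to 6 genes (without MUT replicate 3) in edgeR, 0 to 3 of the 9 with groups that did not overlap against 12.4% to 26.1% of all genes, and 0 to 1 with an unadjusted p under 0.05, which was *Ralb* without MUT replicate 3, where 8.64% of all genes had one. The causes were not tested.

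Directions changed for values near 0. *Rala* was at -0.0050 under the minimum of 10 counts. Across the fits without 1 sample the log2 fold change ran from -0.042 to 0.081 for *Rala*, from -0.0042 to 0.097 for *Rgl2*, from -0.0012 to 0.20 for *Rgl3* and from -0.10 to 0.15 for *Tiam1*, where WT replicate 3 decided the sign. The differences in share, in percentage points, ran from -0.21 to 1.96 for *Ralgds*, from -1.01 to 0.27 for *Rgl1*, from -1.69 to 0.61 for *Rgl2* and from -0.19 to 0.14 for *Rgl3*. That of *Rala* stayed negative, from -2.35 to -1.04. The order of level kept 7 to 9 of the 9 ranks, the change being between *Rgl1* and *Rgl2*. Scaling by the longest coding transcript was chosen after seeing the data. *Rin1*, *Plce1* and *Rgl3* had fewer than 200 counts per sample, which limits them most.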
